A study of Homo sapiens with 12 samples.

Results

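The lamina-associated domains (LADs) of human chromosome 4 are the 875 intervals that the 2 deposited LAD lists place on this chromosome, 577 of the 9178 intervals of the naive list and 298 of the 5671 intervals of the primed list. They were mapped in H9, an established line of human embryonic stem cells derived from 1 embryo, by pA-DamID. In this method a Dam methylase is brought to lamin B1 (LMNB1) by an antibody and protein A, and methylates adenine in the GATC sites within its reach. The series described 12 libraries with no further treatment: 3 LMNB1 and 3 Dam-only control libraries of naive cells, kept in RSeT medium, and the same numbers of primed cells, kept in mTeSR medium. The labels leave unsaid whether the 3 libraries in each group stem from different cultures. Each state entered the files as 1 list of start and end positions with no score or read number, so there is no replicate of either list, the depth is unknown, and every difference between the states is a value of these lists that could not be set against replicate error. The lists hold no expression values, and the state labels could not be set against marker genes. Positions are 1-based on hg38.

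The nuclear lamina is a mesh of lamin proteins under the inner nuclear membrane. DNA that touches it is as a rule poor in genes, rich in genes that are silent in the cell at hand, and late in replication, while genes used by all cells tend to lie inside the nucleus. Chromosome 4 is known for large gene-poor tracts between clusters of tissue-specific genes, such as the casein, albumin and UGT2 clusters of the long arm.

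The assay reads GATC sites, so 7 promoter windows of 300 bases (250 bases before and 50 after the gene start, from RefSeq's GRCh38.p14 table, 5′ to 3′ on the gene's strand) are shown with GATC in capitals. CCSER1, TENM3, SYNPO2 and ANK2 are the longest genes of their class with an entry in the table, YTHDC1 was named in the rule, and DSPP and CCNA2 were chosen after their values were seen. The class in brackets is that of the gene body. The printed windows of TENM3 and SYNPO2 themselves lay in neither list, and the other 5 in the same class as their gene. The TENM3 window surrounds a start inside the gene, whose body begins at chr4:181447613.
CCSER1 (in LADs of both lists, chr4:90127144-90127443, strand +): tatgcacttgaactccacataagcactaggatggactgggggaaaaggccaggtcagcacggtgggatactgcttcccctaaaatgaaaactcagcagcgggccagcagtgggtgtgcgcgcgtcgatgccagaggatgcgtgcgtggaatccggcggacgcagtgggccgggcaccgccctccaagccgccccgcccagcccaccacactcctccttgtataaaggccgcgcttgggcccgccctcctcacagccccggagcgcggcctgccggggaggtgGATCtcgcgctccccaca
TENM3 (in naive LADs only, chr4:182143713-182144012, strand +): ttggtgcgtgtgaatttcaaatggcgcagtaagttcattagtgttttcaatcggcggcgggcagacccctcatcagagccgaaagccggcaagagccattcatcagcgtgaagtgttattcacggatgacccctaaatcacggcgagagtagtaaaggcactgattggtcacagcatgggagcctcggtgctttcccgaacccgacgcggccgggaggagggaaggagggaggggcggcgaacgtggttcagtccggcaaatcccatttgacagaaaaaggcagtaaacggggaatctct
DSPP (in naive LADs only, chr4:87608279-87608578, strand +): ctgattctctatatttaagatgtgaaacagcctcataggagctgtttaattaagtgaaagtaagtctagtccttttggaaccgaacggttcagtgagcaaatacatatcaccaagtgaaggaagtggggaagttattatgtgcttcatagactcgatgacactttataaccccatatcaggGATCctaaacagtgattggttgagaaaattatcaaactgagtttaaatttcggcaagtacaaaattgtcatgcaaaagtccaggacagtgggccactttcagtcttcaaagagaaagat
SYNPO2 (in primed LADs only, chr4:118850431-118850730, strand +): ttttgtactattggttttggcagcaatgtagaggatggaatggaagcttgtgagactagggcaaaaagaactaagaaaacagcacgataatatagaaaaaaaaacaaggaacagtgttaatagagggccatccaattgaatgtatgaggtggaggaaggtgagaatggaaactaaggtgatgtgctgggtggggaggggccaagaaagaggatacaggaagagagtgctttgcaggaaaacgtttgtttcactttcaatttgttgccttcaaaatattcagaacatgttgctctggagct
YTHDC1 (in primed LADs only, chr4:68350041-68350340, strand -): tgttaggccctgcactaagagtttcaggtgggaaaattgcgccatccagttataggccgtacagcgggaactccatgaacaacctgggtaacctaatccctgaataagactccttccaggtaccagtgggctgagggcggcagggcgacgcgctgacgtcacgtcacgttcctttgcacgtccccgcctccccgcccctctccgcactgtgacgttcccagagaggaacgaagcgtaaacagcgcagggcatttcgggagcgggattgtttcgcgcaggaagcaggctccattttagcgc
CCNA2 (in primed LADs only, chr4:121823834-121824133, strand -): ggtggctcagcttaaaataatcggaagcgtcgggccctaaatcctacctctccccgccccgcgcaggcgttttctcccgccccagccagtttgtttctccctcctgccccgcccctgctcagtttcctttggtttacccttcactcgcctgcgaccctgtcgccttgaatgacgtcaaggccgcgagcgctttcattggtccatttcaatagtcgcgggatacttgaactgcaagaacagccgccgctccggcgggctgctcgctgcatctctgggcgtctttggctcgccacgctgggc
ANK2 (in neither list, chr4:112705372-112705671, strand +): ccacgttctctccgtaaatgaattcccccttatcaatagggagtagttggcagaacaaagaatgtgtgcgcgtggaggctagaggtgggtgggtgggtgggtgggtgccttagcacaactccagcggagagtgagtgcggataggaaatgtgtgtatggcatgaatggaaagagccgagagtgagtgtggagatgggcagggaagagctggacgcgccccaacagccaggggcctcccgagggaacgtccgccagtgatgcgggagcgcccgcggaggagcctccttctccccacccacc
CCSER1 and DSPP held 1 GATC each, and the other 5 windows held 0. Of the 35116 promoters in the table, 41.7% held at least 1 GATC (4 letters, the same on both strands). On chromosome 4 the share was 48.1% of 750 promoters with the start in LADs of both lists, 45.9% of 74 with it in LADs of the naive list alone, 39.0% of 100 for the primed list alone and 38.5% of 753 in neither list. A promoter without GATC can still lie in a LAD, since the lists are built of 10 kb windows: the starts of YTHDC1 and CCNA2 lay in windows of the primed list only.

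MicroRNA genes are the other short sequences of the chromosome that the lists place. The miR-302/367 cluster is highly expressed in pluripotent cells, and miR-218 is made from an intron of SLIT2. The mature sequences of these and of MIR1305 are given from RefSeq's table with the seed (bases 2 to 8) in capitals.
hsa-miR-302a-3p (chr4:112648186-112648208, strand -): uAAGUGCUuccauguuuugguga
hsa-miR-302b-3p (chr4:112648489-112648511, strand -): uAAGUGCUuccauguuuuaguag
hsa-miR-302c-3p (chr4:112648366-112648388, strand -): uAAGUGCUuccauguuucagugg
hsa-miR-302d-3p (chr4:112648006-112648028, strand -): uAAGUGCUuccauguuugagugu
hsa-miR-367-3p (chr4:112647877-112647898, strand -): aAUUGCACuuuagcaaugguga
hsa-miR-218-5p (chr4:20528299-20528319, strand +): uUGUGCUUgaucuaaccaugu
hsa-miR-1305 (chr4:182169343-182169364, strand +): uUUUCAACucuaaugggagaga
The 4 miR-302 members share the seed AAGUGCU, and miR-367, miR-218 and miR-1305 each have another. Of the 49 hairpins of chromosome 4 in the sequence table, 19 lay in LADs of both lists, 1 (MIR1305, within TENM3) in LADs of the naive list alone, 0 in those of the primed list alone and 29 in neither list. Among the 63 miRNA genes of the gene table, 28 lay in both, 2 were naive-only, 0 primed-only and 33 lay in neither. Thus 47.6% of them lay in naive and 44.4% in primed LADs, beside 42.7% and 45.7% of the chromosome's protein-coding genes. Over all chromosomes 20.6% and 19.1% of miRNA genes did. The whole miR-302/367 cluster (chr4:112647874-112648557), inside LARP7, lay in neither list. Its nearest LAD was a single 10 kb window in each list, 368 kb away in naive and 268 kb away in primed. MIR218-1 lay inside LADs of both lists.

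Naive LADs covered 137.57 Mb and primed LADs 139.25 Mb of the 190.2 Mb span, 72.3% and 73.2%. LADs of both lists covered 131.99 Mb, naive LADs alone 5.58 Mb, primed LADs alone 7.26 Mb, and 45.37 Mb lay in neither list. Shared bases made up 95.9% of the naive LAD bases of the chromosome and 94.8% of the primed. The Jaccard index (shared bases over bases in either list) was 0.911. It ranged from 0.611 on chromosome 16 to 0.872 on chromosome 7 among the 20 other chromosomes with at least 50 LADs in each list. Across the other 22 chromosomes naive-only bases came to 188.84 Mb and primed-only bases to 68.17 Mb. Primed-only bases exceeded naive-only bases on 4 of the 23 chromosomes, namely 4, 19 (0.07 against 0.03 Mb), 21 (1.55 against 1.27 Mb) and X (10.35 against 7.46 Mb). The order on chromosome 4 depended on the treatment of short gaps. The difference of -0.88 points (naive minus primed) became 0.68 when gaps under 50 kb were closed, and -3.58 when LADs under 100 kb were left out.

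The arms, divided at 50 Mb, differed in the sign of that difference. Naive LADs covered 58.3% of the short arm (chr4:1-50000000) and primed LADs 55.9%, which differ by 2.46 points. Naive LADs covered 77.3% of the long arm (chr4:50000001-190200000) and primed LADs 79.4%, which differ by -2.08 points. Naive-only bases exceeded primed-only bases on the short arm (1.79 against 0.56 Mb), and the reverse held on the long arm (3.79 against 6.70 Mb). The lower coverage of the short arm went with its first 10190 kb, which held no LAD. Over the other 39.81 Mb of the short arm coverage was 73.3% in naive and 70.2% in primed. The short-arm difference turned to -0.96 points once LADs under 100 kb were left out. The long-arm difference shrank to -0.007 points once LADs separated by less than 100 kb were joined.

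**Figure D1:**
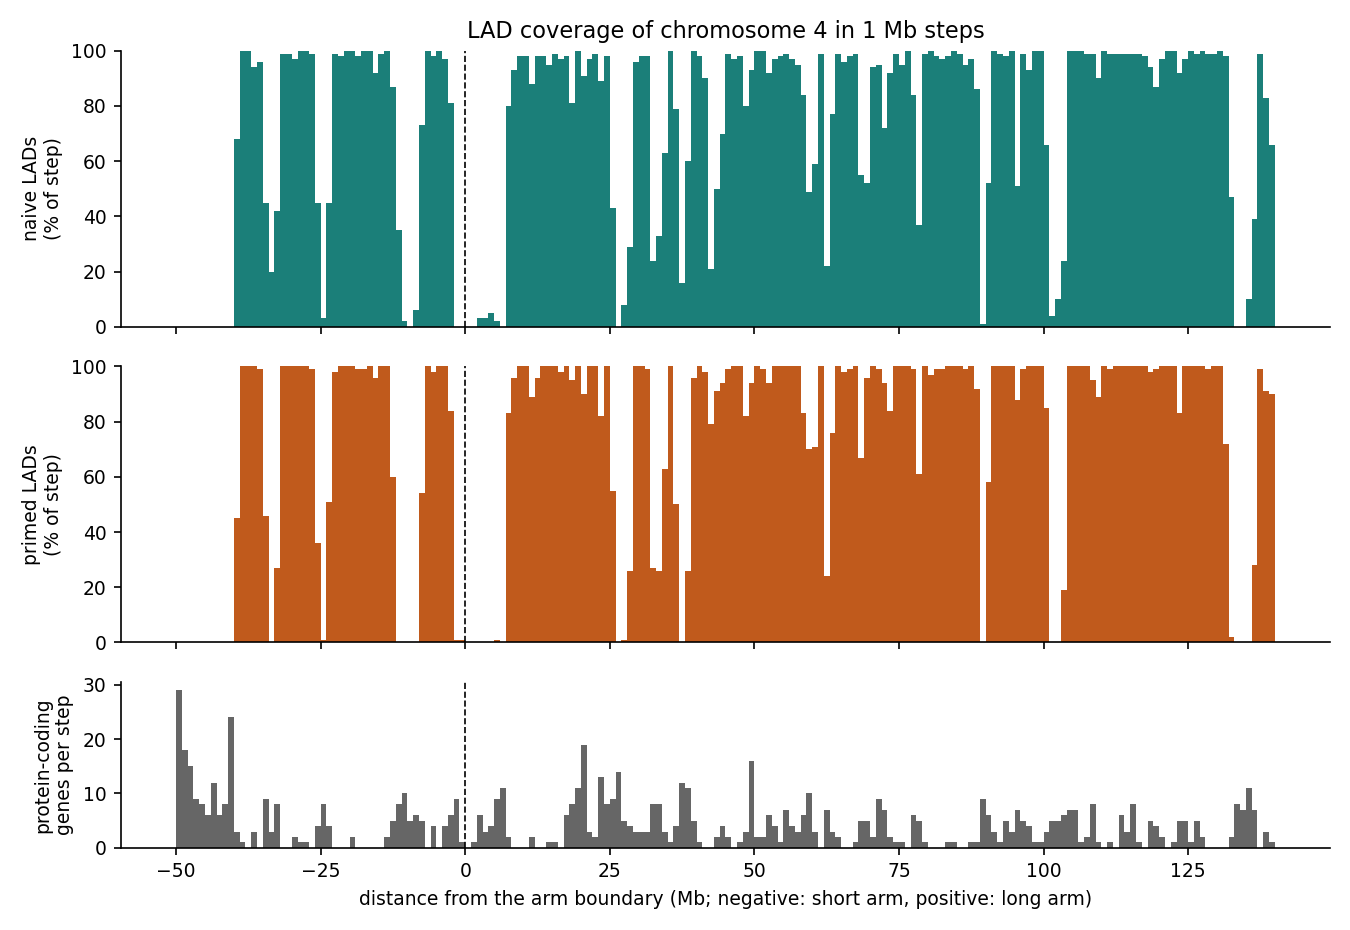
LAD coverage of chromosome 4 in 190 steps of 1 Mb, in percent of the step, for the naive list (top) and the primed list (middle), with the number of protein-coding genes per step (bottom). The x axis is the distance in Mb from the boundary between the arms at 50 Mb, with the short arm on the left. The first 10 steps are empty in both lists, and 99 steps are covered at 95% or more in both.

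Along 190 steps of 1 Mb, most were covered almost completely or hardly at all. In both lists 99 steps were covered at 95% or more, 27 at 5% or less and 17 at 0. Those 17 were the first 10 steps of the short arm and 7 others, at chr4:40000001-41000000, chr4:50000001-52000000, chr4:56000001-57000000, chr4:76000001-77000000 and chr4:183000001-185000000. Naive LADs filled 32 steps completely and primed LADs 78. Primed coverage was the higher in 95 steps, naive coverage in 42, and both were equal in 53. Pearson's r between the lists was 0.961 over the 190 steps, which share neighbouring LADs and the libraries behind each list. The 99 steps at 95% or more held 188 protein-coding genes, or 1.90 per Mb, and the 27 steps at 5% or less held 245, or 9.07 per Mb. The exception with the most genes was chr4:69000001-70000000, covered at 100% in both lists, with 11 genes, among them members of the UGT2 and casein clusters.

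**Figure D2:**
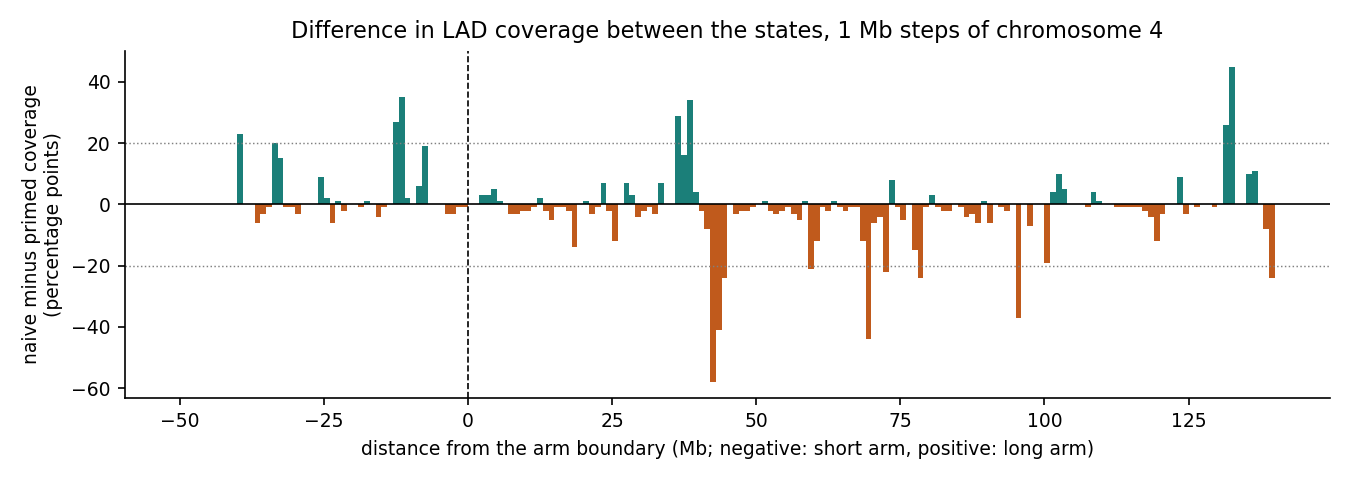
Naive minus primed LAD coverage, in percentage points, in the 190 steps of 1 Mb, against the distance in Mb from the boundary between the arms. Green bars are steps with more naive and orange bars steps with more primed coverage, and dotted lines mark 20 points. All 9 steps at or below -20 points lie on the long arm, while 4 of the 8 steps at or above 20 points lie on the short arm. The long arm spans 140.2 Mb and the short arm 50 Mb, of which the first 10190 kb held no LAD in either list.

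Coverage differed by 20 points or more in 17 steps, 8 with more naive and 9 with more primed coverage. Steps with more primed coverage included chr4:119000001-120000000 (52% and 96%, with SYNPO2, USP53 and PDE5A), chr4:145000001-146000000 (51% and 88%, with SMAD1 and ZNF827) and chr4:128000001-129000000 (37% and 61%, with LARP1B). In the last full step of the long arm, chr4:189000001-190000000, naive coverage was 66% and primed coverage 90%, and FRG1 is its protein-coding gene.

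The largest naive excess was in 2 steps at chr4:181000001-183000000, of which naive LADs covered 72.5% and primed LADs 37%. They hold TENM3, a teneurin that links neurons to each other, and overlap the nucleotide enzyme gene DCTD. On the short arm, naive coverage of chr4:37000001-39000000 was 61% and primed coverage 30%. The naive coverage there lay in 24 pieces. Of the genes that overlap this tract, RELL1, PGM2, PTTG2 and TMEM156 were in naive LADs only. The innate immunity genes TLR6 and TLR10 and the transcription factor gene KLF3 were at 0% of the gene body in both lists. TLR1, also of innate immunity, was at 31.2% in naive and 0% in primed. On the long arm, chr4:88000001-89000000 had 60% naive and 26% primed coverage, with HERC3, HERC5 and HERC6 in naive LADs only. Of its other genes, ABCG2 was at 21.2% in naive and 0% in primed, and PKD2 at 0% in both lists. With the step grid shifted by 500 kb, 8 steps passed 20 points in each direction.

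The LADs of chromosome 4 were cut more finely in the naive list. Naive LADs had a mean length of 238 kb and primed LADs of 467 kb, while the median was 30 kb in both. Of the 577 naive LADs 199 were a single 10 kb window, as were 99 of the 298 primed LADs. The naive list had 41 LADs of 1 Mb or longer with 52.7% of its bases here, and the primed list 42 with 82.2%. Most breaks were short: 464 naive and 246 primed gaps were under 50 kb, and 323 and 159 of these were a single window. Joining LADs across them left 113 naive and 52 primed LADs, and those of 1 Mb or longer then held 93.5% and 97.8% of bases. Per Mb of LAD there were 4.19 naive and 2.14 primed LADs, in each list the lowest of the 21 chromosomes with at least 50 LADs in each list. Fragmentation was seen on both arms: LADs of 1 Mb or longer held 66.5% of naive and 89.8% of primed bases on the short arm, and 49.0% and 80.3% on the long arm.

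**Figure D3:**
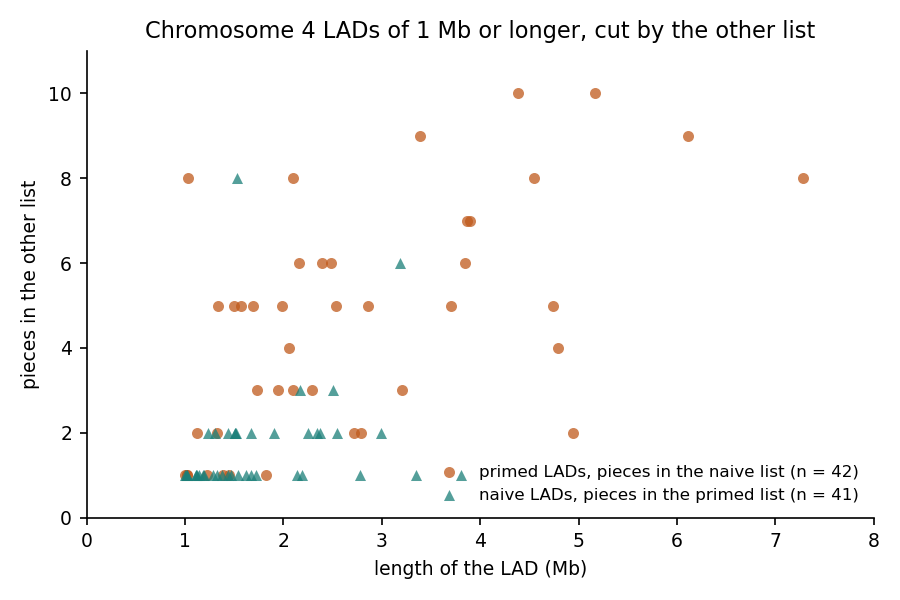
Each LAD of 1 Mb or longer on chromosome 4, by its length in Mb (x axis) and the number of pieces in which the other list covers it (y axis). Orange circles are the 42 primed LADs with their naive pieces, and green triangles the 41 naive LADs with their primed pieces. Primed LADs reach 10 naive pieces, and 24 of the naive LADs lie in 1 primed piece.

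The 42 long primed LADs were covered by 193 naive pieces (median 5, from 1 to 10), and 7 of them by a single piece. The 41 long naive LADs were covered by 70 primed pieces (median 1, from 1 to 8), and 24 of them by a single piece. Little sequence was lost to these breaks, since 37 of the 42 primed LADs were covered at 95% or more by naive LADs.

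The longest primed LAD, chr4:161550001-168830000 (7.28 Mb), held 21 protein-coding genes. They include the ubiquitin ligase gene MARCHF1, the proteoglycan gene SPOCK3, the protease gene TLL1, DDX60L and CPE, the carboxypeptidase of hormone processing. Naive LADs covered 99.0% of it in 8 pieces. The next, chr4:17860001-23970000 (6.11 Mb), held 4 genes, among them KCNIP4, a potassium channel partner, and SLIT2, an axon guidance ligand, and was covered at 98.5% in 9 naive pieces. The primed LAD at chr4:102840001-108010000 (5.17 Mb) held 21 genes, including TBCK, the neurokinin receptor gene TACR3 and TET2, a 5-methylcytosine dioxygenase. Naive LADs covered 97.3% of it in 10 pieces.

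The primed LAD chr4:153810001-158750000 (4.94 Mb) met the longest naive LAD, chr4:153800001-157600000 (3.8 Mb). Both held the cadherin-related gene DCHS2, the growth factor gene PDGFC, and GRIA2 and GLRB, subunits of the AMPA and glycine receptors. The primed LAD chr4:173540001-178330000 (4.79 Mb, 4 naive pieces) held GPM6A, GLRA3 and the lymphatic growth factor gene VEGFC. The sixth in length, chr4:27080001-31820000 (4.74 Mb, 5 naive pieces), held 2 protein-coding genes, PCDH7, a protocadherin, and LOC124900844. The longest naive LADs after the first were chr4:20580001-23930000 (3.35 Mb, with KCNIP4), chr4:170090001-173270000 (3.18 Mb, with GALNTL6 alone), chr4:10560001-13550000 (2.99 Mb, with HS3ST1, RAB28 and NKX3-2), chr4:28990001-31770000 (2.78 Mb, with PCDH7) and chr4:147870001-150410000 (2.54 Mb, with the mineralocorticoid receptor gene NR3C2). Primed LADs covered 97.5% to 100% of each of the 6 longest naive LADs.

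Borders were compared after joining LADs less than 100 kb apart and keeping those of 100 kb or longer, which left 38 naive and 18 primed domains. Of the 36 primed borders, 13 lay within 20 kb of a naive border of the same side and 20 within 100 kb. Of the 76 naive borders, the same numbers did.

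LAD-free DNA was concentrated in few stretches. Of the 45.37 Mb in neither list, 29.73 Mb (65.5%) lay in 16 stretches of 500 kb or longer, which held 268 protein-coding genes completely, of the 395 of the chromosome that lay in neither list. The first 10190 kb of the chromosome were the longest. This stretch held 136 genes, among them SORCS2 and STK32B, the urate transporter gene SLC2A9, the fibroblast growth factor receptor gene FGFR3, the homeobox genes MSX1, HMX1 and NKX1-1 and a run of zinc finger genes at the chromosome end. The count includes LOC124900165 and other predicted genes, and many copies of the USP17L family. MSX1 lay 5326 kb from the nearest naive and 5356 kb from the nearest primed LAD.

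The second in length was chr4:182970001-185710000 (2740 kb, 25 genes), next to TENM3, with STOX2, WWC2, SNX25, ENPP6 and the interferon regulatory factor gene IRF2. The third, chr4:49720001-52180000 (2460 kb), includes the centromere and held 4 genes, DCUN1D4, SPATA18, LRRC66 and SGCB. In these lists a window short of mappable reads or of GATC sites looks the same as one far from the lamina, and this stretch is rich in repeats. The next were chr4:39080001-41420000 (2340 kb, 16 genes, with the RNA-binding protein gene RBM47, the cohesin regulator gene PDS5A and the ribosomal protein gene RPL9), chr4:75730001-77500000 (1770 kb, 19 genes, with SHROOM3 and the chemokines CXCL9, CXCL10 and CXCL11) and chr4:48180001-49710000 (1530 kb, 7 genes, with FRYL and SLAIN2). All 6 are longer than any gap that was closed, so the 5 ways of joining or leaving out LADs could not change them.

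Stretches in LADs of 1 state were short. There were 336 naive-only stretches, 236 of them a single window and the longest 110 kb, and 424 primed-only stretches, 299 of them a single window and the longest 140 kb. Their surroundings differed. Of the naive-only stretches 162 (48.2%) had DNA of neither list on both sides, and 86 (25.6%) filled a break in a primed LAD. Of the primed-only stretches 65 (15.3%) had DNA of neither list on both sides, and 267 (63.0%) filled a break in a naive LAD. The 267 breaks in naive LADs came to 3.86 Mb and 20 of them (7.49%) held a protein-coding gene start, beside 8.96% of all 424 primed-only stretches. The 86 breaks in primed LADs came to 1.23 Mb with 6 (6.98%) holding one, beside 5.65% of all 336 naive-only stretches.

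The longest naive-only stretches were chr4:182020001-182130000 (110 kb), chr4:181520001-181610000 (90 kb) and chr4:182350001-182430000 (80 kb), all within TENM3. The next were 3 of 70 kb, of which chr4:38510001-38580000 overlapped no protein-coding gene, chr4:86410001-86480000 lay in MAPK10, a JNK kinase gene of neurons, and chr4:88660001-88730000 held NAP1L5 within HERC3. The stretches at chr4:182020001-182130000 and in MAPK10 stayed naive-only along their whole length under all 5 ways of joining or leaving out LADs. The other 4 did so under 4 of them. For the 110 kb stretch the outcome was fixed by its length, since only gaps and LADs under 100 kb were closed or left out.

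The longest primed-only stretch, chr4:119190001-119330000 (140 kb), held 3 whole genes, USP53, ARLN and FABP2. Next came chr4:68290001-68400000 (110 kb) with YTHDC1 and chr4:189860001-189970000 (110 kb) with FRG1. The others were chr4:119480001-119570000 (90 kb) in PDE5A, the cGMP phosphodiesterase gene, chr4:122720001-122810000 (90 kb) over the start of BBS12, a chaperonin-like gene of the primary cilium, and chr4:150780001-150860000 (80 kb) in LRBA. These 6 stayed primed-only along their whole length under each of the 5 ways of joining or leaving out LADs. For those of 140 and 110 kb this was fixed by their length, since only gaps and LADs under 100 kb were closed or left out.

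**Figure D4:**
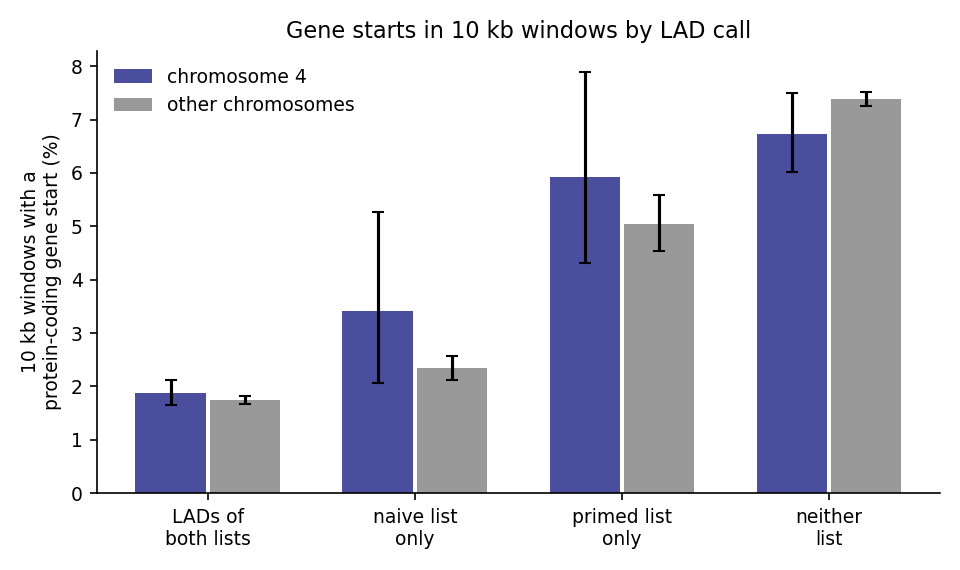
Share of 10 kb windows that hold a protein-coding gene start, in percent, by LAD call, for chromosome 4 (blue) and the other 22 chromosomes together (grey). Bars are shares and error bars are exact binomial (Clopper-Pearson) 95% intervals, which take windows as independent and cover no replicate error. The share on chromosome 4 is 1.87% in LADs of both lists and 6.72% in neither list.

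Gene starts were rarer in shared LAD windows than in windows of neither list. A protein-coding start lay in 247 of 13199 windows of both lists (1.87%, exact binomial 95% interval 1.65% to 2.12%), in 19 of 558 naive-only windows (3.41%, 2.06% to 5.27%), in 43 of 726 primed-only windows (5.92%, 4.32% to 7.90%) and in 305 of 4537 windows of neither list (6.72%, 6.01% to 7.49%). The intervals of primed-only windows and windows of neither list overlapped. On the other chromosomes the shares were 1.75%, 2.34%, 5.05% and 7.39% in the same order. Starts came from the promoter table, which held 657 of the 770 protein-coding genes of chromosome 4 (the most upstream start where it gave several), and the intervals cover counting error only.

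Genes covered over 50% or more of their body were counted as lying in a LAD. Of the 770 protein-coding genes, 42.7% lay in LADs of the naive and 45.7% in LADs of the primed list, where 18.9% and 17.3% of all 19974 protein-coding genes did. Of the 770 genes of chromosome 4, 306 lay in LADs of both lists and 395 in neither list. LADs of the naive list alone held 23 of the 770, and those of the primed list alone 46. Over all 19974 genes, 3079 (15.4%) lay in both, 687 (3.44%) in naive LADs alone and 378 (1.89%) in primed LADs alone. The 23 naive-only genes made 22 loci after overlapping genes were merged, and the 46 primed-only genes 41. Of the primed-only genes 45 lay on the long arm and 1, BOD1L1, on the short arm, and of the naive-only genes 17 and 6 did. The long arm held 521 and the short arm 249 of the 770 genes, and 207 of those 249 lay in neither list. Median gene length was 57.7 kb in LADs of both lists, 19.95 kb for the naive-only genes, 42.6 kb for the primed-only genes and 33.9 kb in neither.

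The counts in 1 state depend on how much of a gene must be covered and on short LADs. Naive-only genes numbered 12 with LADs under 100 kb left out and 38 with a requirement of 10% of the body, and primed-only genes between 32 and 58 over all 8 alternatives. The genes themselves changed more than the counts: of the 46 primed-only genes, 30 were still primed-only with LADs less than 50 kb apart joined and 27 with LADs under 100 kb left out. Of the 23 naive-only genes, 20 and 6 were. With LADs less than 100 kb apart joined, 21 primed-only and 13 naive-only genes kept their call. A requirement of 90% of the body kept 23 and 8, and the gene start in a LAD kept 25 and 8.

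**Figure D5:**
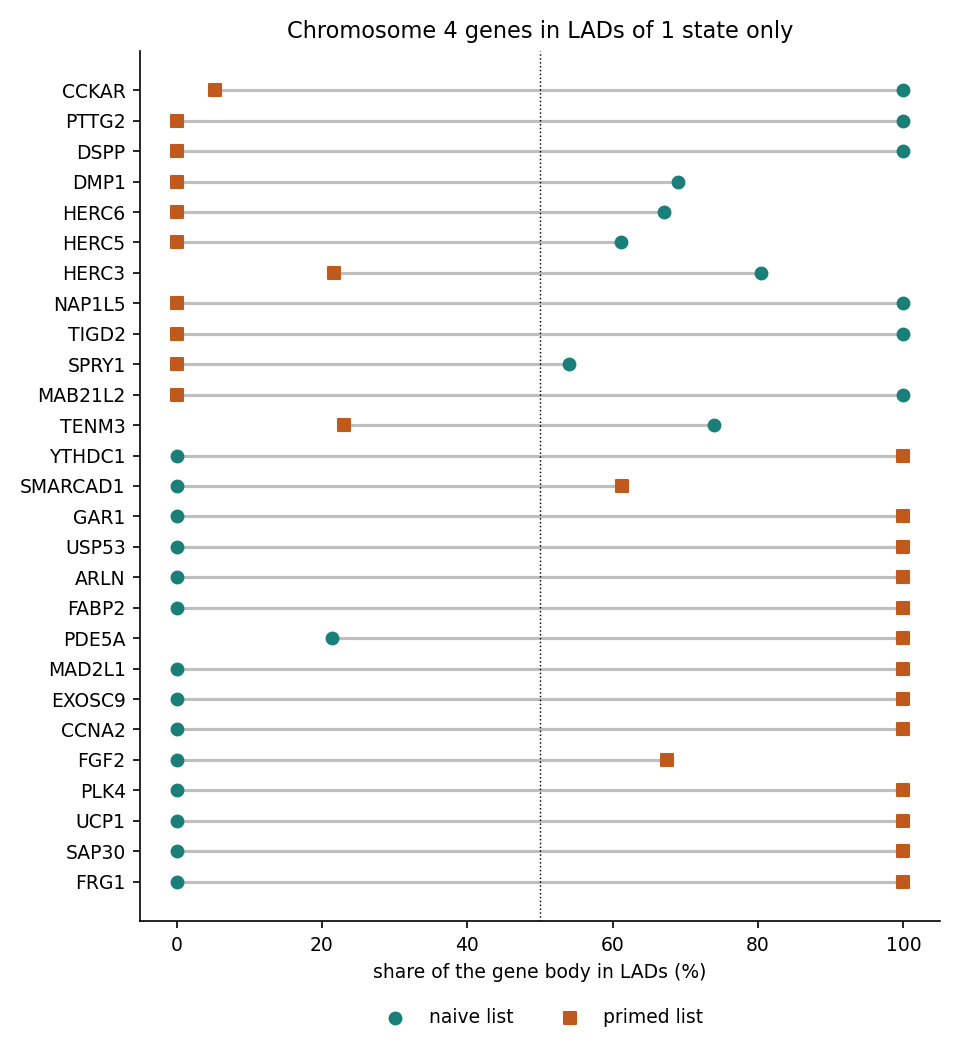
Share of the gene body in LADs, in percent, for 27 protein-coding genes of chromosome 4 that lay in LADs of 1 state only, ordered by position within each group. Green circles are the naive and orange squares the primed list, and the dotted line marks the 50% limit. The upper 12 genes are above the limit in naive only, and the lower 15 in primed only.

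Among the primed-only genes 12 differed by 90 points or more, and all of these were at 0% in naive and 100% in primed. They were USP53, of the ubiquitin-specific protease family, YTHDC1, the nuclear reader of N6-methyladenosine, FRG1, a gene of the facioscapulohumeral dystrophy region, PLK4, the kinase of centriole duplication, EXOSC9, a subunit of the RNA exosome, MAD2L1 of the spindle checkpoint, UCP1, the uncoupling protein of brown fat, GAR1 of the H/ACA ribonucleoproteins, ARLN, a small regulator of the calcium pump SERCA, CCNA2, which encodes cyclin A2, SAP30 of the SIN3 deacetylase complex, and FABP2, the intestinal fatty acid binding protein.

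Several of these lie in a long primed LAD that the naive list breaks. PLK4 (chr4:127880893-127899224) lay 0.893 kb from a naive LAD and inside a primed LAD of 4380 kb. CCNA2 (chr4:121816444-121823883) and EXOSC9 (chr4:121801323-121817021), which overlap, lay 6.12 kb and 11.3 kb from naive LADs and inside a primed LAD of 1330 kb. MAD2L1 (chr4:120055623-120066848) lay 3.15 kb from a naive LAD of 1670 kb and inside a primed LAD of 1990 kb. YTHDC1 (chr4:68310387-68350090) lay 20.4 kb from a naive LAD of 640 kb and inside a primed LAD of 1730 kb. USP53, YTHDC1, FRG1, ARLN and FABP2 stayed primed-only under all 5 ways of joining or leaving out LADs. Those 5 genes lie in primed-only stretches of 140 or 110 kb, which closing gaps or leaving out LADs under 100 kb cannot change. PLK4 and UCP1 stayed primed-only under 4 ways, GAR1 under 3, and EXOSC9, MAD2L1, CCNA2 and SAP30 under 2. FRG1 has near-identical copies elsewhere in the genome, and how reads that map to several places were treated is unknown here, so its call is uncertain.

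Among the naive-only genes 6 differed by 90 points or more. DSPP, which encodes a matrix protein of dentin, TIGD2, related to a transposase, MAB21L2 of eye development, the imprinted gene NAP1L5 and PTTG2, a relative of securin, were at 100% in naive and 0% in primed. CCKAR, a cholecystokinin receptor, was at 100% and 5.33%. NAP1L5 stayed naive-only under 4 of the 5 ways of joining or leaving out LADs, CCKAR, DSPP and PTTG2 under 3, TIGD2 under 2 and MAB21L2 under 1. All 6 are under 10 kb long, so 1 or a few windows set their call, and PTTG2, at 0.731 kb, is much shorter than a window and closely related to PTTG1 of another chromosome.

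Of the 23 naive-only genes, 10 lay within chr4:86594315-89114901, a tract of 2.52 Mb, named after its values were seen. They were PTPN13, SLC10A6, HSD17B13, DSPP, DMP1, HERC6, HERC5, HERC3, NAP1L5 and TIGD2. The tract overlapped 28 protein-coding genes, and its bounds were set by the naive-only genes themselves. It was covered at 43.9% in 23 naive pieces and 16.2% in 13 primed pieces. The tyrosine phosphatase gene PTPN13 was at 84.1% in naive and 31.7% in primed. Of the HERC genes, a family of ubiquitin ligases, HERC3 was at 80.4% and 21.7%, HERC6 at 67.1% and 0%, and HERC5, the ligase for the ubiquitin-like protein ISG15, at 61.2% and 0%. HERC5, HERC6 and DMP1 differed by 0 once LADs under 50 or 100 kb were left out, while HERC3 and PTPN13 stayed naive-only in 4 of the 5 ways of joining or leaving out LADs.

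Primed-only genes formed 5 groups of 4 or more, also named after their values were seen. At chr4:118850681-120066848 lay SYNPO2, USP53, ARLN, FABP2, PDE5A and MAD2L1, with coverage of 43.4% in naive and 91.8% in primed. At chr4:127781796-128222926 lay HSPA4L, LOC112268470, PLK4, MFSD8, ABHD18 and LARP1B, with 15.6% and 88.9%. At chr4:121801323-122922968 lay EXOSC9, CCNA2, BBS12, FGF2 and NUDT6, with 77.0% and 95.6%. At chr4:145133650-145938823 lay OTUD4, MMAA, C4orf51 and ZNF827, with 49.4% and 87.7%. At chr4:109560246-110565285 lay MCUB, CFI, GAR1, RRH and ENPEP, with 37.6% and 59.4%. In this order the 5 tracts overlapped 7, 6, 12, 5 and 10 protein-coding genes, and their bounds were set by the primed-only genes themselves. Neighbouring genes share LADs, so members of a group are not independent.

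Some calls lay close to the 50% limit. All 23 naive-only genes differed by 50 points or more, as did 37 of the 46 primed-only genes. Such a difference can still lie near the limit: the naive-only genes SHISA3 and HSD17B13 were at 50.3% and 52.4% in naive, with 0% in primed. TIFA, with 48.1% in naive and 51.9% in primed, had the smallest difference, and UBE2D3 (38.8% and 52.2%) and METAP1 (44.7% and 59.6%) differed by under 15 points.

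Gene families of chromosome 4 were read in 20 lists of 171 genes. Of these, 98 lay in LADs of both lists, 5 were naive-only, 9 were primed-only and 59 lay in neither list. Among all 770 protein-coding genes of the chromosome the numbers were 306, 23, 46 and 395. The median share covered over the 171 was 94.6% in naive and 100% in primed, beside 7.36% and 0.242% over all 770 genes.

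Receptors and adhesion genes of neurons were mostly in shared LADs, where 306 of all 770 protein-coding genes of the chromosome lay. All 4 GABA-A receptor subunit genes lay in both, with GABRB1 and GABRA4 at 100% in each list, GABRA2 at 93.2% and 100% and GABRG1 at 77.3% and 100%. Of the glutamate and glycine receptor genes, GRIA2, GLRA3 and GLRB were at 100% in both lists. The receptor genes for neuropeptide Y (NPY1R, NPY2R and NPY5R), neurokinin (TACR3) and gonadotropin-releasing hormone (GNRHR) were at 100% in both, while NMU, which encodes the peptide neuromedin U, was at 0% and 24.1%. The delta protocadherins PCDH7 and PCDH10 were at 100% in both lists, and PCDH18 at 81.6% and 100%. Of the 14 genes listed as large neuronal and adhesion genes, LRBA and INPP4B among them, 11 lay in both. SORCS2 and FRAS1 lay in neither, and TENM3 in naive LADs only, at 74.0% and 23.05%. CCSER1, the longest gene in LADs of both lists, was at 97.3% and 98.6%.

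Genes of liver, secretory and blood proteins were also mostly in shared LADs, beside 306 of all 770 genes. Of the albumin family and fibrinogen genes 6 of 7 lay in both. The exception, AFP, which encodes alpha-fetoprotein, was at 100% in naive and 49.9% in primed, just under the limit, and its call was kept under 2 of the 5 settings. Of the UGT2 genes, enzymes that add glucuronic acid to steroids and drugs, 9 of 10 were at 100% in both. UGT2B17 was at 41.7% and 67.2%, and its near-identical copies and common deletion in people make the call uncertain. All 13 casein and salivary protein genes lay in both, with STATH at 61.1% in each list and the others at 100%. All 5 TMPRSS11 protease genes, all 3 glycophorin genes (near-identical copies) and the interleukin genes IL2, IL15 and IL21 lay in both. Of the alcohol dehydrogenases 6 of 7 were at 100% in both, and ADH5, the member active in most tissues, was at 0% and 49.3%.

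The CXC chemokines divided by cluster. The 9 members near the albumin genes, from CXCL8 to CXCL2, were at 100% in both lists. CXCL9, CXCL10 and CXCL11, induced by interferon gamma, were at 0% in both, and CXCL13 was at 38.2% and 0%. The bone and tooth matrix genes divided likewise: the enamel genes AMBN, ENAM and AMTN were at 100% in both lists. In the second cluster DSPP was at 100% and 0%, DMP1 at 69.1% and 0%, and IBSP, MEPE and SPP1 at 0% in both. The nearest LAD to SPP1, which encodes osteopontin, was 117 kb away in naive and 607 kb away in primed.

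The 5 Toll-like receptor genes, the neighbouring kinase genes KIT, PDGFRA and KDR and 5 zinc finger genes of the short arm end were in neither list. Of all 770 protein-coding genes of the chromosome, 395 were. TLR3, TLR6 and TLR10 were at 0% in both, TLR1 at 31.2% and 0% and TLR2 at 37.9% and 0%. KIT, PDGFRA and KDR, which encode receptors for stem cell factor, platelet-derived growth factor and vascular endothelial growth factor, were at 0% in both lists. The naive list placed a single window close to each, at 9.29 kb from KIT, 31.8 kb from PDGFRA and 18.5 kb from KDR, and the primed list had none within 494 kb of any of them. ZNF595, ZNF718, ZNF732, ZNF141 and ZNF721 were at 0% in both lists, and all lie in the first 10190 kb, which held no LAD.

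Of 14 developmental regulators 10 lay in neither list, as did 395 of all 770 genes. The members in LADs rose from 4 in each list to 7 in naive and 8 in primed when gaps under 100 kb were closed. MSX1, NKX6-1, NKX1-1, HMX1, GSX2 and NEUROG2 were at 0% in both, HAND2, of heart and limb development, at 5.53% and 0%, and POU4F2 at 30.9% in each. LEF1, NKX3-2 and PRDM8 lay in LADs of both lists. LEF1, a transcription factor of the WNT pathway, was at 84.4% in each list, and its start lay in a window of neither.

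Pluripotency, FGF and WNT signalling genes were spread over all classes, with 8 of 16 in both, 1 naive-only, 2 primed-only and 5 in neither. Of all 770 genes, 306, 23, 46 and 395 were in these classes. FGF2, whose protein sustains primed cells, was at 0% in naive and 67.4% in primed, and its start lay in a window of neither list. The call of FGF2 rested on a primed LAD of 40 kb, and its difference was 0 with LADs under 50 or 100 kb left out. FGF5, a marker of the primed epiblast, was at 100% in both. SPRY1, an inhibitor of FGF signalling, was at 54.0% in naive through 1 window and 0% in primed, and its call was kept under 2 of the 5 ways of joining or leaving out LADs. TET2 was at 96.9% and 100%. ZFP42 (REX1), a marker of pluripotent cells, was at 0% in both lists but lay 5.77 kb from a naive LAD of 1020 kb and 4.76 kb from a primed LAD of 40 kb. Its neighbours TRIML1 and TRIML2, tripartite motif genes, were at 73.9% in each list and at 0% and 52.4%. The call of TRIML2 was lost under all 5 ways of joining or leaving out LADs.

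DUX4, an activator of genes of the 8-cell embryo, lies in repeats near the end of the long arm (chr4:190173774-190185911 in the gene table). It was at 0% in both lists, 314 kb from the nearest naive and 134 kb from the nearest primed LAD. Its repeats have near-identical copies, so an uncovered window there is not informative without the reads.

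Of 28 widely used genes, such as those for ribosomal proteins, splicing and the cell cycle, 20 lay in neither list and 3 in both. Another 5 were primed-only and 0 naive-only. Of all 770 genes, 395 lay in neither list, 306 in both, 46 were primed-only and 23 naive-only. RPS3A, RPL9, RPL34, HNRNPD, POLR2B and EIF4E were at 0% in both. CENPE and CENPC of the centromere and SMARCA5, a chromatin remodeller, lay in both. The 5 were CCNA2 and YTHDC1, each at 0% and 100%, SMARCAD1, a remodeller of the SNF2 family, at 0% and 61.3% (a difference of -1.54 points once LADs under 50 or 100 kb were left out), and UBE2D3 and METAP1 with the small differences given above. Primed-only members of this list numbered between 2 and 4 under the 5 ways of joining or leaving out LADs.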

How the data were processed

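The LMNB1 and Dam-only libraries of naive and primed H9 cells entered this work as 1 LAD list per state, deposited by the authors as interval coordinates in bases, with no count, signal or score. Per the submitters' processing notes, the tools were SICER, BWA and SAMtools 1.10, and the build was hg38. Not given in the sources used here are the thresholds, the order of steps, how 3 libraries were combined, and how the lists named simple, used here, relate to those that the labels call final. Every start and end fell on a multiple of 10 kb, and neighbouring intervals never touched, so LADs are runs of 10 kb windows.

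From the coordinates were computed coverage of the 190.2 Mb up to the end of the last annotated gene or LAD, by arm (divided at 50 Mb) and by 1 Mb step, lengths, gaps, stretches of 10 kb windows in 1 list or neither, and the share of each gene body covered. Genes (770 protein-coding on chromosome 4) came from RefSeq's GRCh38.p14 table, the same primary assembly as hg38, and miRNA and promoter sequences from its sequence tables. A gene lay in a LAD at 50% or more. Exact binomial intervals describe window shares only. No test between states was made, since each has 1 list.

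The members, the gene lists and the rules were chosen with earlier results of these data known. Named were protein-coding genes in LADs of 1 state that differed by at least 90 points (up to 15 per direction), list members that differed (up to 4 per direction, otherwise up to 3), up to 5 genes of the 6 longest LADs and stretches, and 9 genes given whatever their values (DUX4, ZFP42, TRIML1, TRIML2, TET2, FGF2, FGF5, SPRY1 and LEF1). Other list members are given to show a whole family, and they, the genes of the differing steps, and other genes outside the rule were chosen after their values were seen. As alternatives, gaps between LADs under 50 or 100 kb were closed, LADs shorter than 50 or 100 kb were dropped, or both were done. Others moved the arm boundary to 52 Mb, shifted the steps by 500 kb, and changed the share of a gene required to 90% or 10% or used its start. The settings for steps, window shares and shares of bases in long LADs were added after seeing the data. Some members of the gene lists and a tract of the long arm are not reported here. Functions were tested on simulated data. The scripts ran under Python 3.11.15 with pandas 2.3.3, numpy 2.4.6, matplotlib 3.10.9 and, for intervals, SciPy 1.17.1.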

Additional observations from a re-analysis of the deposited data

How the results depend on the processing

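The settings on the deposited lists are given in the order LADs less than 50 kb apart joined, less than 100 kb apart joined, under 50 kb left out, under 100 kb left out, and joined at 50 kb and then filtered at 100 kb. Naive coverage of chromosome 4 was 75.9%, 77.5%, 69.4%, 67.0% and 75.05%, and primed coverage 75.2%, 76.2%, 71.7%, 70.6% and 74.9%. The difference, naive minus primed, was 0.68, 1.32, -2.26, -3.58 and 0.11 points, so its sign changed in the 3 settings that join LADs. LAD numbers were 113, 67, 251, 181 and 50 in naive and 52, 26, 130, 98 and 28 in primed, with more naive LADs in each setting. The short-arm difference turned to -0.96 points with LADs under 100 kb left out, and was 5.06 points with LADs less than 100 kb apart joined. In the first 4 settings the long-arm difference was -0.63, -0.00713, -3.34 and -4.51 points, and it did not change sign in any setting, including an arm boundary at 52 Mb. Naive-only genes numbered 12 with LADs under 100 kb left out and 38 at 10% of the body, and stayed within 1.5 times the 23 reported in the other 6 settings, while primed-only genes did so in all 8. The joined lists have fewer gaps and the filtered lists fewer LADs by construction; other causes were not tested. No paired analysis was possible because each state has 1 list, which does not keep the replicate numbers apart, and leaving out replicates could not be run for the same reason. The depth behind a window is unknown.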
